A study of Homo sapiens with 18 samples.

Results

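Base excision repair is the pathway that removes small damaged or wrong bases from DNA. Peaks called with antibodies against ETO or a Flag tag, used to map the tagged leukaemia fusion protein AML1-ETO, were examined at 10 genes of this pathway. These were OGG1, MUTYH, NEIL1, NTHL1, UNG, MPG, APEX1, POLB, XRCC1 and LIG3, of 19974 protein-coding genes on chromosomes 1 to 22 and X. The genes were chosen by name as enzymes or scaffold of the pathway. A peak counted for a gene when it overlapped the gene or its flanks of 10 kb on each side, with gene positions from RefSeq on GRCh38. By that rule 9 of the 10 genes had at least 1 peak, as had 11668 of the 19974 protein-coding genes, and POLB had 0. The 4 single-antibody lists gave 44 separate regions at the 10 genes out of 35619 in the genome.

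The cells were Kasumi-1, a human acute myeloid leukaemia line with the t(8;21) translocation, which joins RUNX1 (AML1) to RUNX1T1 (ETO). All groups carried AML1-ETO with a Flag tag and were sorted as viable GFP+ cells at day 3 of transduction. They were controls or had the microRNA miR-130a knocked down; what the control vector carried is not given in the sources used here. CUT&RUN, which releases and sequences the DNA around an antibody-bound protein, was run with anti-ETO, anti-Flag or mouse IgG, 3 libraries for each of the 6 groups. The deposited values were peak positions only, with 1 list for each antibody and condition and no height or score, so no spread between libraries can be given, no test of control against knockdown is possible, and every difference below is a description of these lists. The 4 single-antibody lists held 14264 (control anti-ETO), 23162 (control anti-Flag), 22594 (knockdown anti-ETO) and 25961 (knockdown anti-Flag) peaks. The authors also derived lists of peaks called by both antibodies, split into those shared by the conditions (8731), control-unique (3059) and knockdown-unique (4617).

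In base excision repair a glycosylase first cuts out the damaged base. The endonuclease APEX1 then opens the strand at the empty site, the polymerase POLB fills the gap, and the ligase LIG3, held by the scaffold XRCC1, seals it. OGG1 removes 8-oxoguanine, the common oxidised form of guanine, and has been described as a gene that AML1-ETO represses. AML1-ETO reaches DNA through the RUNX1 part of the fusion, which binds the RUNX core letters TGTGGT or TGCGGT.

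Gene starts of 4 members are printed first because the findings turn on them: the starts of OGG1 and NTHL1 lay under peaks of all 4 single-antibody lists, and the starts of UNG and LIG3 lay under anti-ETO peaks of both conditions and under no knockdown anti-Flag peak. Each sequence runs 5′ to 3′ along the gene, from 250 bases before to 30 bases after the annotated start, and is RefSeq sequence of GRCh38.p14, not sequence read from these cells. The positions are chr3:9749702-9749981 (+ strand) for OGG1, chr16:2047805-2048084 (- strand) for NTHL1, chr12:109097347-109097626 (+ strand) for the most upstream UNG start and chr17:34980262-34980541 (+ strand) for LIG3. Capitals mark TGTGGT or TGCGGT on either strand.
OGG1: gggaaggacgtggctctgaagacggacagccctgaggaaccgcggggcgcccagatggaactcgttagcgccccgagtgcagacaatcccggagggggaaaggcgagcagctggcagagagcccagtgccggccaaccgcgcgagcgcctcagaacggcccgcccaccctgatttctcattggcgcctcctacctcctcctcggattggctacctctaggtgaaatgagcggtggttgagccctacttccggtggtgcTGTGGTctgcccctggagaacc
NTHL1: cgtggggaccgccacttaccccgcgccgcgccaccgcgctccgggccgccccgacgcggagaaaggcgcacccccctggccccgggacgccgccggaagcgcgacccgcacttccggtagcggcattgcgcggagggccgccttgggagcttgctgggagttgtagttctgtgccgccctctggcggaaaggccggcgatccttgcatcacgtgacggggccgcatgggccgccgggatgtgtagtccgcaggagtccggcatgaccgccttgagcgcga
UNG: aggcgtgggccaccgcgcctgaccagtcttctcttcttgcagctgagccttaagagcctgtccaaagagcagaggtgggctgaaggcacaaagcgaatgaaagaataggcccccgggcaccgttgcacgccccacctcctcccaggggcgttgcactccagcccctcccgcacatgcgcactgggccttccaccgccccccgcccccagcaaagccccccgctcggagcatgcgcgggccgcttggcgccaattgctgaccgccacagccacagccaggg
LIG3: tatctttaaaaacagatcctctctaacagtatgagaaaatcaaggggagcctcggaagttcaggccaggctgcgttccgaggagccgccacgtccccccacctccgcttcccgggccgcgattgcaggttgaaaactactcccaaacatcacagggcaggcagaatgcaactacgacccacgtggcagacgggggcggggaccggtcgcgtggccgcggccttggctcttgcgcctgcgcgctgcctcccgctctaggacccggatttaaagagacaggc

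The OGG1 window held 1 RUNX core, TGTGGT, beginning at position 9, counted from 1 at the annotated start, with -1 for the base before it. It also held TTCCGG, the reverse complement of the ETS-factor letters CCGGAA, at position -4, and the E-box CAGCTG at position -143. The NTHL1 window held CCGGAA once on each strand, at positions -158 and -139, and no RUNX core. The UNG window held CAGCTG at position -211 and no RUNX core, and the LIG3 window held none of the letters searched. None of these matches overlapped another. Over 22132 annotated starts of protein-coding genes, 280-base windows held TGTGGT in 10.6%, TGCGGT in 7.79%, CAGCTG in 16.3% and CCGGAA in 20.4%, both strands counted. Either RUNX core was in 17.7% of all windows, in 23.4% of the 4010 windows under a peak of all 4 lists, and in 16.2% of the 13708 windows under no peak. Among the 14 annotated starts of the 9 members with an entry, 5 windows at 4 members (OGG1, MUTYH, NEIL1 and MPG) held a RUNX core. A match is a run of letters and says nothing on whether the fusion bound there. Starts with a match lay under peaks at OGG1 and MUTYH, and under no peak at NEIL1 and MPG. Starts without a match lay under peaks at MUTYH, NTHL1, UNG, LIG3 and APEX1, and under no peak at NEIL1 and XRCC1. POLB had no entry.

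Across the 10 genes, 8 had a control anti-ETO peak and 9 a control anti-Flag peak. The same counts over all protein-coding genes gave 47.6% and 50.2%. In knockdown, 9 members had an anti-ETO peak (53.8% of all genes) and 6 had an anti-Flag peak (42.2%). UNG, NEIL1 and LIG3 were the members with a control anti-Flag peak and no knockdown anti-Flag peak. The share of all genes with such a loss was not counted, so these 3 have no background to be read against. Over all genes the share with an anti-Flag peak was also lower in knockdown (42.2%) than in control (50.2%). The control anti-Flag peaks at NEIL1 (170 bp) and the LIG3 start (175 bp) were among the narrowest, with 0.0% and 2.82% of that list narrower. At UNG the peak was 586 bp wide (68.2% narrower), and a second LIG3 peak was 258 bp wide (22.3%). A peak in each of the 4 lists was found at OGG1, MUTYH, NTHL1, MPG, APEX1 and XRCC1, 6 of 10, against 37.3% of all genes, and POLB shared its lack of any peak with 41.6% of all genes. A shared peak was found at the same 6 members (35.1% of all genes), a control-unique peak at 2, UNG and LIG3 (16.9%), and a knockdown-unique peak at 3, OGG1, NTHL1 and MPG (18.4%). In the lists of peaks called by both antibodies, 8 members had a control peak (43.8%) and 6 a knockdown peak (39.4%). Among the 11110 protein-coding genes between 2.5 and 41.1 kb long, the range of the members, the shares for shared, control-unique and knockdown-unique peaks were 38.2%, 16.2% and 22.2%.

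**Figure D1:**
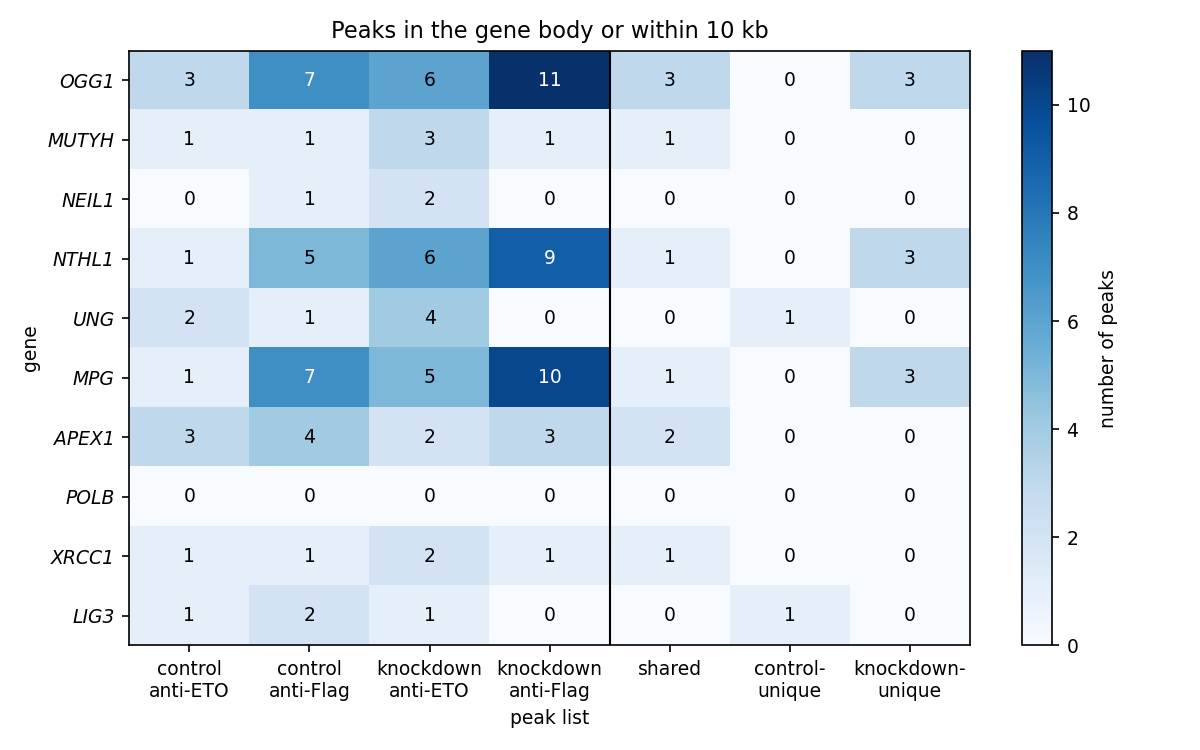
Number of peaks at each member, flanks of 10 kb included (rows), in the 4 single-antibody lists and the 3 derived lists (columns); darker cells hold more peaks. OGG1, NTHL1 and MPG have 11, 9 and 10 knockdown anti-Flag peaks, the other 7 members have 3 or fewer, and the POLB row is 0 throughout.

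By number of peaks, the members held 13 in the control anti-ETO list, 29 in control anti-Flag, 31 in knockdown anti-ETO and 35 in knockdown anti-Flag. OGG1, NTHL1 and MPG held most of the knockdown peaks of both antibodies. More anti-ETO peaks in knockdown than in control were found at 7 members (32.4% of all genes) and fewer at 1, APEX1 (5.05%). More anti-Flag peaks were found at 3, OGG1, NTHL1 and MPG (18.7%), and fewer at 4, NEIL1, UNG, APEX1 and LIG3 (21.8%). Adjacent peaks of a list can lie in the same merged region, so a change in number need not be a gained or lost site. The knockdown anti-ETO list is also the longer of the anti-ETO lists over the whole genome. Shortened by peak width to the number of control peaks, it held 19 peaks at the members. It then gave more anti-ETO peaks than control at 5 members (14.8% of all genes) and fewer at 3, UNG, LIG3 and APEX1 (15.9%), so UNG changed direction. The knockdown anti-Flag list shortened in the same way held 34 member peaks, with more at 3 members (15.3%) and fewer at 4 (25.3%). Member peaks had a median width of 847 bp in control anti-ETO (461 bp over that whole list), 520 bp in control anti-Flag (416 bp), 570 bp in knockdown anti-ETO (453 bp) and 375 bp in knockdown anti-Flag (364 bp).

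No member had more peaks than OGG1 in any of the 4 lists, though APEX1 had as many in control anti-ETO, MPG in control anti-Flag and NTHL1 in knockdown anti-ETO. OGG1 held 3 control anti-ETO, 7 control anti-Flag, 6 knockdown anti-ETO and 11 knockdown anti-Flag peaks. At least 11 knockdown anti-Flag peaks were found at 3.79% of all protein-coding genes. The OGG1 window is the longest of the members at 61.1 kb and holds 5 other protein-coding genes (BRPF1, CAMK1, TADA3, ARPC4 and ARPC4-TTLL3), so some of these peaks lie nearer to a neighbour. Merging the lists gave 8 regions at OGG1, of which 3 were called in all 4 lists (24.8% of all regions) and 2 in the knockdown lists only (37.9%). The 11 knockdown anti-Flag peaks lay in these 8 regions, so some regions held 2 of them.

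The widest OGG1 region covered the OGG1 start. A control anti-ETO peak at chr3:9749314-9750984 (1671 bp) and a control anti-Flag peak at chr3:9749143-9750992 (1850 bp) lay across it. In knockdown the anti-ETO peak was chr3:9748961-9751293 (2333 bp) and the anti-Flag peak chr3:9748659-9751207 (2549 bp). Both antibodies thus covered more bases at the OGG1 start in knockdown. These peaks are wide for their lists: 95.3% of control anti-ETO, 96.7% of control anti-Flag, 97.6% of knockdown anti-ETO and 99.2% of knockdown anti-Flag peaks were narrower. A second Flag peak upstream of the start, 559 bp wide in control and 354 bp wide in knockdown, joined the same merged region. The authors' shared list holds this site as chr3:9748659-9751293.

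Downstream within the OGG1 window, the shared list held chr3:9779222-9781016, centred 30.2 kb from the OGG1 start and overlapping the end of TADA3, and chr3:9792248-9793772, over the starts of TADA3 and ARPC4. TADA3 is a subunit of histone acetylase complexes and ARPC4 a subunit of the actin-nucleating ARP2/3 complex. The site at 30.2 kb had 1357 bases under control anti-ETO and 1302 under knockdown anti-ETO, but 1612 under control anti-Flag and 513 under knockdown anti-Flag. At the TADA3 and ARPC4 starts both antibodies covered more in knockdown, with 726 against 1525 bases for anti-ETO and 725 against 1113 for anti-Flag.

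Knockdown-unique peaks at OGG1 numbered 3, as they did at NTHL1 and MPG, a number reached by 3.34% of all protein-coding genes and by 4.1% of those of the members' length. The first, chr3:9746404-9747372, lay 2.58 kb before the OGG1 start in the last part of BRPF1, a chromatin reader gene. The second, chr3:9754428-9755436, lay inside OGG1 and began 4476 bp from its start. The third, chr3:9772034-9772624, lay inside the annotated OGG1 span and 2087 bp from the start of CAMK1, a calcium-dependent kinase gene, which is the nearer start. The control anti-Flag list already had a call at the first (174 bp) and the second (775 bp), where knockdown Flag calls covered 800 and 1009 bp, and neither control list had a call at the third. No control anti-ETO peak overlapped any of the 3. With the knockdown lists shortened by width to the control lengths, the first and second kept calls by both antibodies and the third kept its Flag call alone.

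**Figure D2:**
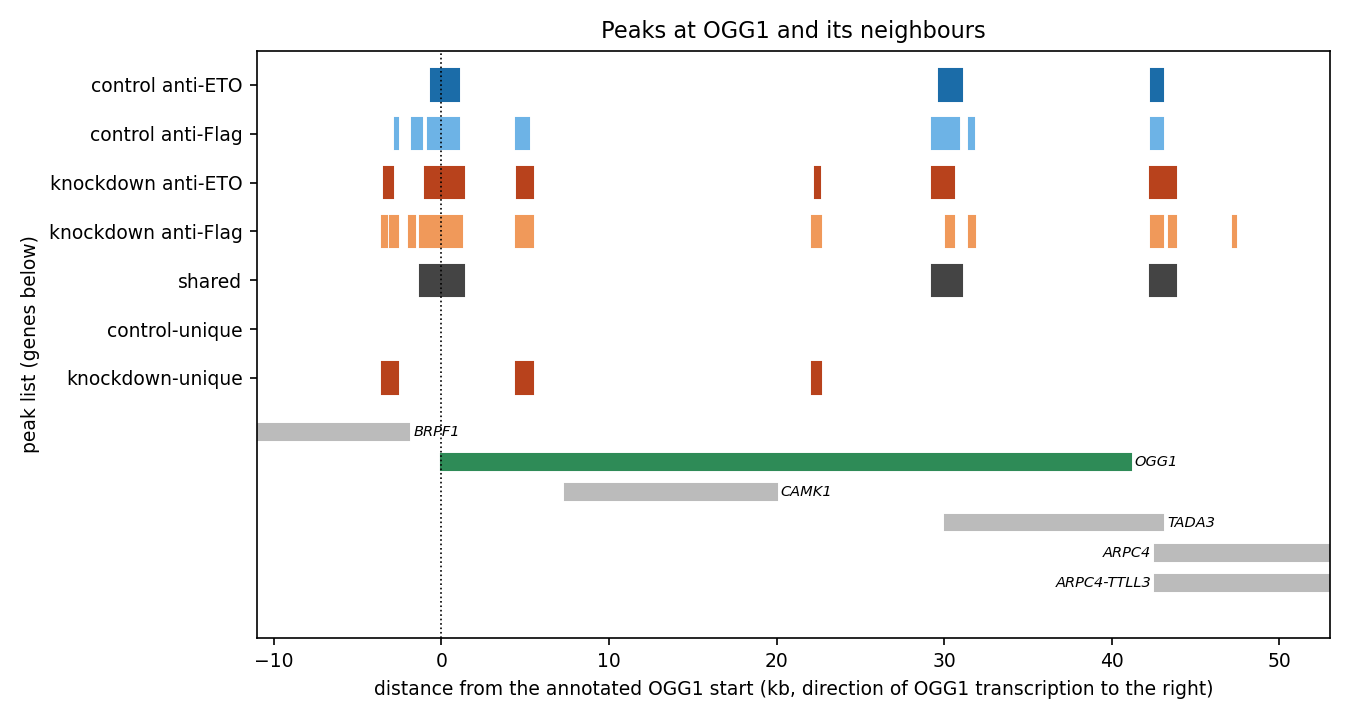
Peaks of the 4 single-antibody and 3 derived lists (coloured blocks, 1 row per list) against distance from the annotated OGG1 start in kb, with the OGG1 gene in green and its neighbours in grey. The 3 shared peaks lie at the start and at 30.2 and 43.1 kb, and the 3 knockdown-unique peaks lie at about -3.06, 4.96 and 22.4 kb.

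NTHL1, the glycosylase for oxidised pyrimidines, had 1 control anti-ETO, 5 control anti-Flag, 6 knockdown anti-ETO and 9 knockdown anti-Flag peaks. Its start lies back to back with that of TSC2, the tuberous sclerosis gene, and the shared peak chr16:2046968-2048918 covered both starts, so it cannot be given to 1 of the genes. Anti-ETO covered 942 bases of that region in control and 1951 in knockdown. For anti-Flag the values were 1110 bases in 2 control peaks and 1280 bases in 3 knockdown peaks. The knockdown-unique peak chr16:2044010-2044802 lay inside NTHL1, its centre 3.43 kb from the start, with no control call by either antibody. The other knockdown-unique peaks, chr16:2033356-2034127 and chr16:2029723-2030329, lay in the neighbouring NHERF2, a scaffold protein gene, and the first of these had a control anti-Flag call of 274 bp. All 3 kept both knockdown calls when the knockdown lists were shortened.

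MPG, which removes alkylated purines, had 1 control anti-ETO, 7 control anti-Flag, 5 knockdown anti-ETO and 10 knockdown anti-Flag peaks. Of its 12 merged regions 1 was called in all 4 lists (24.8% of all regions) and 6 in a single list (44.3%). Of those 6, 4 were called by knockdown anti-Flag, a class that holds 22.3% of all regions. The region in all 4 lists overlapped the upstream boundary of the RHBDF1 span, which faces MPG. The shared list gives this region as chr16:75634-76994. It ends 13 bp before the MPG gene span, which begins at chr16:77007, and 1231 bp before the MPG start listed for RefSeq promoters, at position 78225. Its coverage was 1154 bases in control and 1136 in knockdown for anti-ETO, and 962 and 1216 for anti-Flag. The 3 knockdown-unique peaks all lay inside MPG. chr16:78439-79344 began 214 bp past that listed start, with no control call, and lost its narrow ETO call of 203 bp when the knockdown lists were shortened. chr16:83779-84282 and chr16:84679-85287 began 5554 and 6454 bp past it, and both had a control anti-Flag call. Anti-Flag covered 420 bases in control and 375 in knockdown at the former, and 853 and 247 at the latter.

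**Figure D3:**
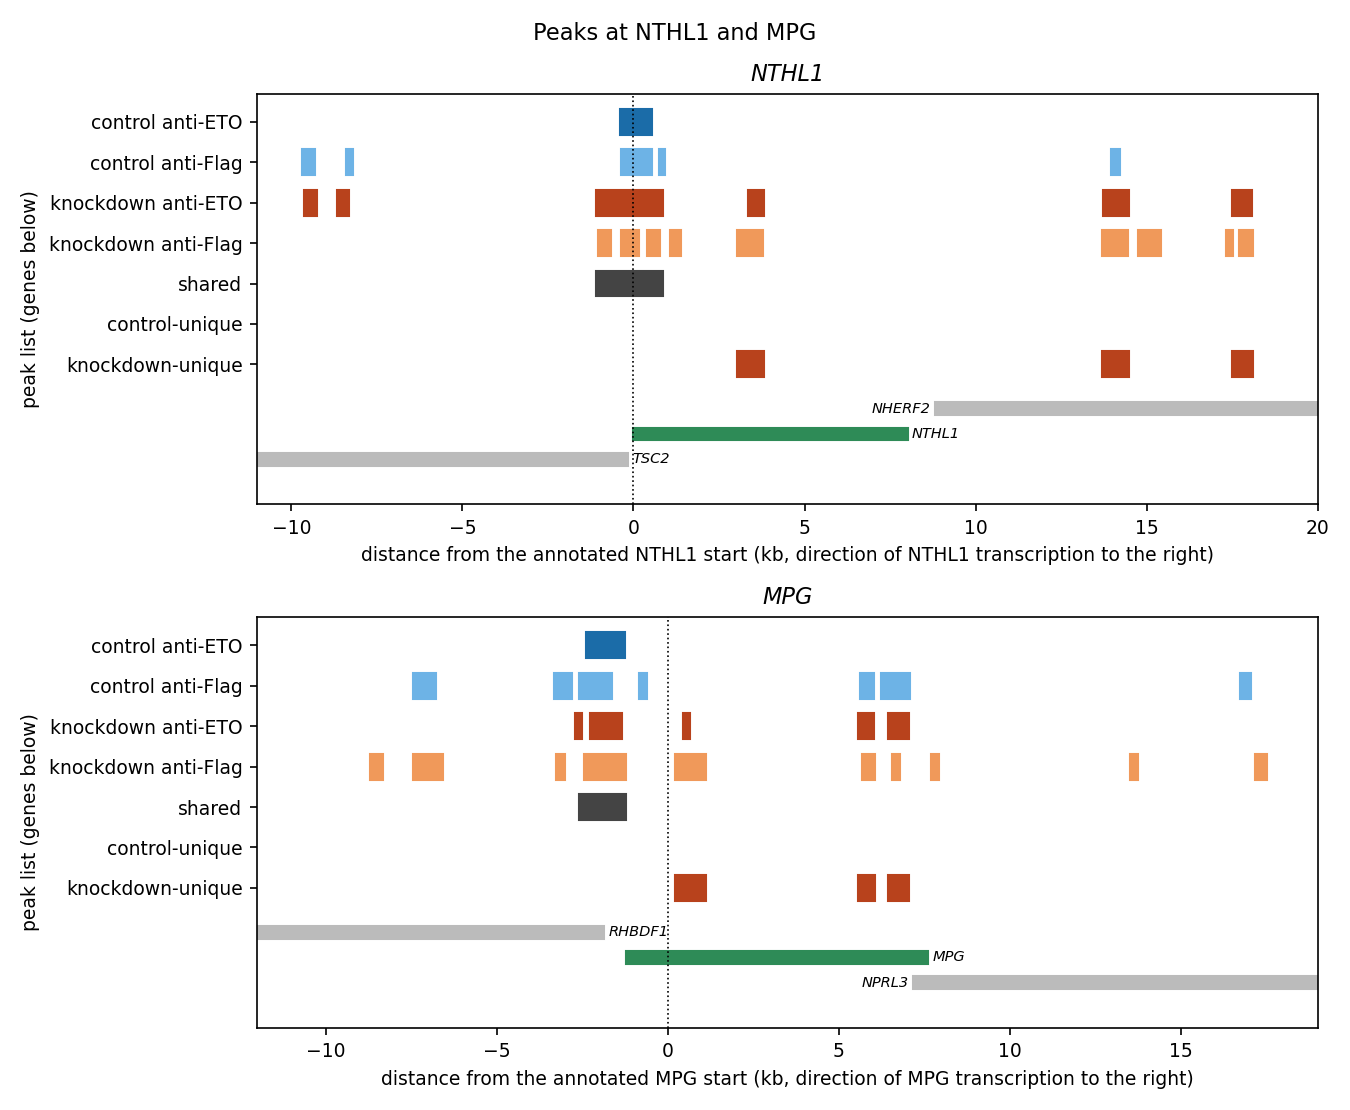
Peaks of the 7 lists (rows) against distance in kb from the annotated start of NTHL1 (top) and of MPG (bottom), with the member gene in green and neighbours in grey. At NTHL1 the shared peak lies on the start, at MPG it is part of a region centred at -1.96 kb, and each gene has 3 knockdown-unique and 0 control-unique peaks.

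Over OGG1, NTHL1 and MPG together, 5 of the 9 knockdown-unique peaks were called in control by anti-Flag but not by anti-ETO, and 4 by neither antibody. Over all 4617 knockdown-unique peaks these shares were 55.1% and 38.1%, so the members' 55.6% and 44.4% lie near the genome's.

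UNG, the glycosylase for uracil, and LIG3, the ligase of the final step, showed the other order. At the UNG start the control lists held an anti-ETO peak at chr12:109097374-109097946 (573 bp) and an anti-Flag peak at chr12:109097345-109097930 (586 bp). Knockdown anti-ETO gave chr12:109097377-109097946 (570 bp), nearly the same interval, and the nearest knockdown anti-Flag peak lay 44.7 kb from UNG. A control anti-ETO peak of 182 bp, 41 bp from the second annotated UNG start, was called by no other list. The knockdown anti-ETO list had 3 further narrow peaks in the UNG flanks, 207, 185 and 257 bp wide and nearest to the starts of ALKBH2 and ACACB. ALKBH2 is itself a repair gene, which reverses alkylation directly.

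At the LIG3 start the intervals were chr17:34980361-34980743 for control anti-ETO (383 bp), chr17:34980569-34980743 for control anti-Flag (175 bp) and chr17:34980358-34980727 for knockdown anti-ETO (370 bp). The nearest knockdown anti-Flag peak lay 52980 bp from LIG3. The control Flag peak is narrow and begins just past the printed window. A second control Flag peak of 258 bp lay 12.5 kb inside LIG3 and had no partner in the other lists. With the knockdown lists shortened by width, UNG kept 1 anti-ETO peak and LIG3 kept 0. The control-unique peaks of UNG and LIG3 were thus anti-ETO calls in both conditions with a Flag call in control alone, as were 74.7% of all 3059 control-unique peaks.

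MUTYH removes adenine placed opposite 8-oxoguanine and so acts beside OGG1. Its start region is shared with TOE1, an RNA exonuclease gene read in the opposite direction, and was called in all 4 lists. Anti-ETO covered 910 bases in control and 1490 in knockdown there, while anti-Flag covered 702 and 416. The knockdown anti-ETO list also held peaks of 596 bp inside MUTYH and of 324 bp near the start of HPDL, and no other list called either.

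APEX1, the main abasic-site endonuclease, shares its start region with OSGEP, a tRNA modification gene. That region carried 2 control anti-ETO peaks (654 bases in all), 2 control anti-Flag peaks (1060), 1 knockdown anti-ETO peak (1001) and 2 knockdown anti-Flag peaks (557). A second shared peak, chr14:20460748-20462194, overlapped the boundary of PIP4P1 that faces away from APEX1. PIP4P1 had no entry among the annotated starts, so this boundary may be its start. Anti-ETO covered 940 bases there in control and 631 in knockdown, and anti-Flag 811 and 276. APEX1 was the member with fewer knockdown than control peaks for both antibodies (3 against 2 for anti-ETO, 4 against 3 for anti-Flag). Both of its regions kept a call in every list, so the lower counts lay within regions and no region was lost.

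XRCC1, the scaffold that binds LIG3, had its single region of all 4 lists well inside the gene, at chr19:43562343-43563321 in the shared list, its centre 12.7 kb past the start. Anti-ETO covered 847 bases there in control and 813 in knockdown, and anti-Flag 975 and 321. The other XRCC1 peak, of 589 bp in knockdown anti-ETO, lay 112 bp from the start of ZNF575. No list had a peak over the XRCC1 start.

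NEIL1, a second glycosylase for oxidised pyrimidines, had 1 control anti-Flag peak of 170 bp and 2 knockdown anti-ETO peaks of 317 and 207 bp, all inside the gene, in 2 regions centred 3.12 and 3.74 kb from its most upstream start. It had no derived peak. The next peaks of each of the 4 lists lay 10.6 kb from NEIL1, just outside the rule, and the shared list has that site too. For POLB, the gap-filling polymerase, the nearest peaks lay 40.5 kb away in control anti-ETO, 40.8 kb in control anti-Flag, 19.6 kb in knockdown anti-ETO and 40.5 kb in knockdown anti-Flag.

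Starts were compared next, counting a peak over the 300 bases from 250 before to 50 after any annotated start. Of the 9 members with an entry, 6 had a control anti-ETO peak over a start (32.6% of 15812 protein-coding genes) and 5 a control anti-Flag peak (32.3%). In knockdown the counts were 6 for anti-ETO (38.7%) and 4 for anti-Flag (23.8%). OGG1, MUTYH, NTHL1 and APEX1 had a start under all 4 lists (20.8% of genes), and the same 4 had a shared peak over it (24.3%). UNG was covered by all lists but knockdown anti-Flag (6.88%), and NEIL1, MPG and XRCC1 by none (57.9%). MPG was judged by its 1 listed start, at position 78225. Its gene span begins upstream of that, at 77007, which is 13 bp past the shared peak. The control-unique peaks of UNG and LIG3 both lay over the start, as at 6.82% of genes. None of the 9 knockdown-unique peaks did (3.43% of genes).

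**Figure D4:**
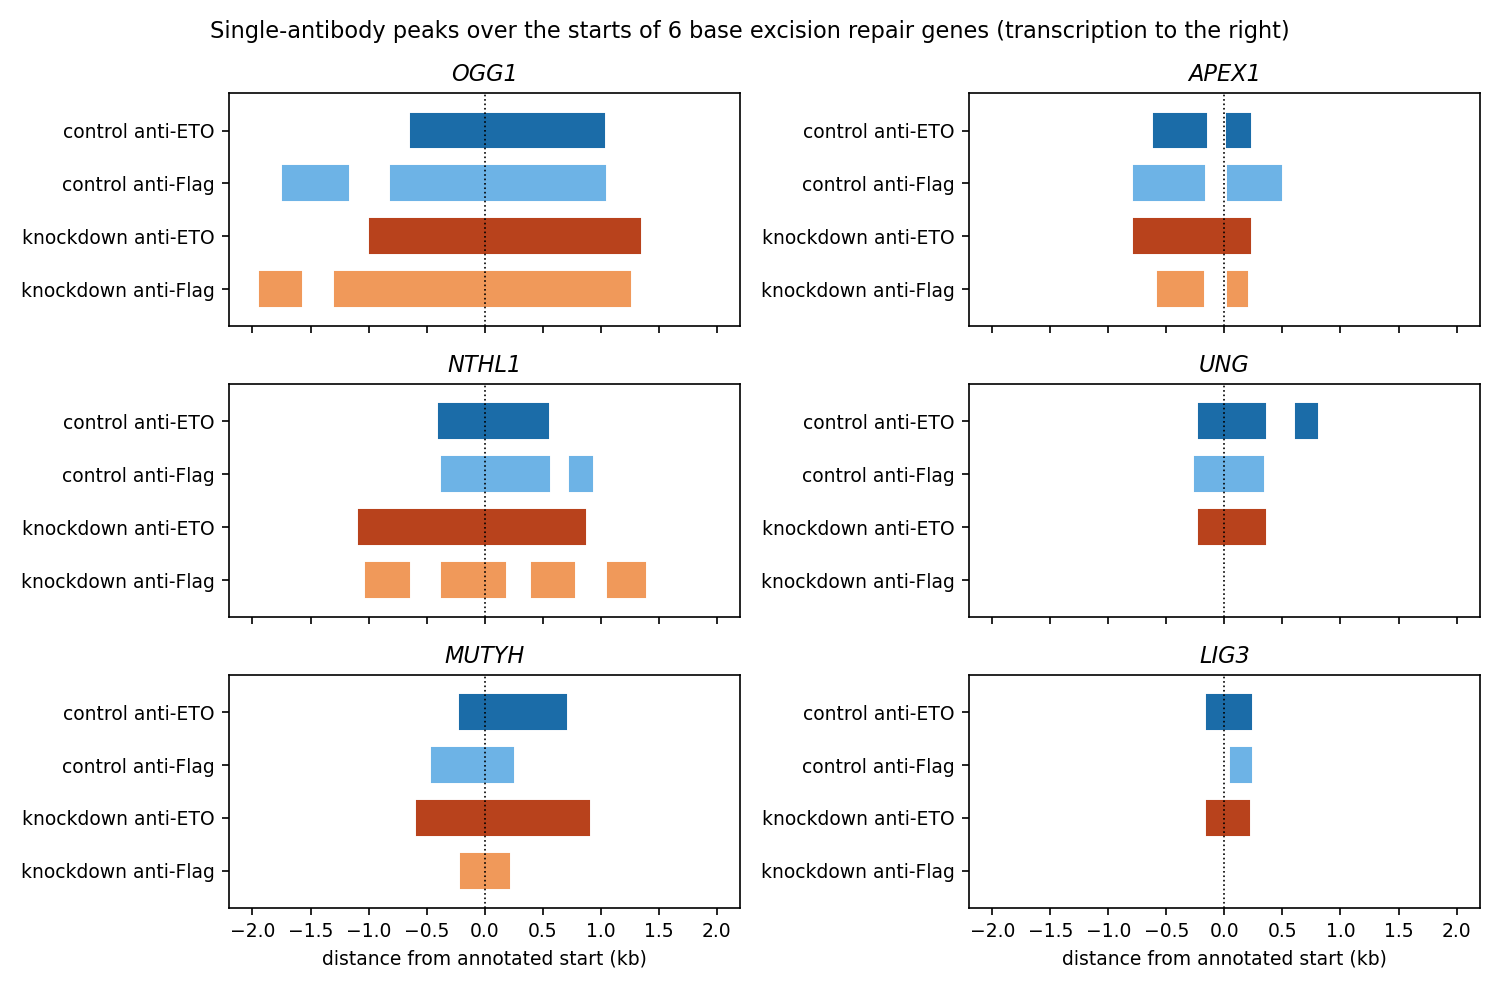
Single-antibody peaks (blocks, 1 row per list) around the most upstream annotated start (dotted line) of the 6 members with a peak at a start; the x axis is distance in kb. OGG1, NTHL1, MUTYH and APEX1 have blocks in all 4 rows, and UNG and LIG3 have none in the knockdown anti-Flag row.

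At the 9 member regions called in all 4 lists, the bases covered by each antibody were compared between conditions. These were 20.5% of the 44 member regions, beside 24.8% of all regions. Anti-ETO covered more in knockdown at 5 of the 9 (81.3% of all such regions), with ratios of knockdown to control from 0.671 to 2.1 and a median of 1.4, beside 1.26 over all 8835. Anti-Flag covered more in knockdown at 4 of the 9 (30.2% of all), with ratios from 0.318 to 1.54 and a median of 0.593, beside 0.883. The starts of OGG1 and of NTHL1 and the TADA3 and ARPC4 starts were wider in knockdown for both antibodies. The starts of MUTYH and APEX1 were wider for anti-ETO and narrower for anti-Flag. Peak width follows the depth and threshold of a call as well as the bound stretch, and their part in these ratios was not tested.

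**Figure D5:**
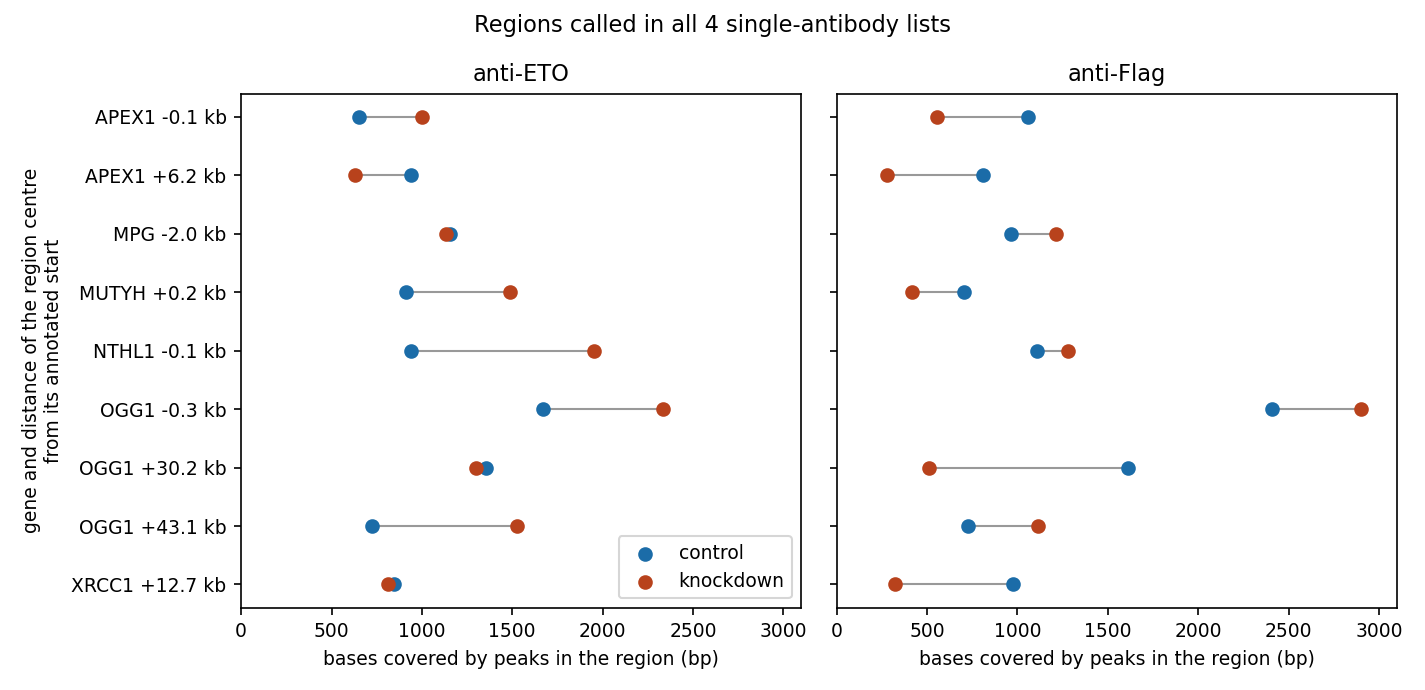
Bases covered by peaks (x axis, bp) in control (blue) and knockdown (red) at the 9 member regions called in all 4 single-antibody lists, for anti-ETO (left) and anti-Flag (right); each row is a region, named by gene and distance from its start. The OGG1 start is the widest for both antibodies, at 2333 bp (anti-ETO) and 2903 bp (anti-Flag) in knockdown.

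Of the 44 member regions, 18 were called in knockdown lists only, 40.9% against 37.9% of all regions, and 4 in control lists only, 9.09% against 13.4%. Knockdown anti-ETO alone gave 7 regions, at MUTYH, NEIL1, UNG and XRCC1 (15.9% of member regions, 10.3% of all regions). Knockdown anti-Flag alone gave 7, at OGG1, NTHL1 and MPG (15.9% and 22.3%). In the shortened knockdown lists 2 of the 7 anti-ETO regions still had their call, at MUTYH and XRCC1, as did all 7 anti-Flag regions.

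The rest of the pathway was read from a list of 26 other base excision repair genes. Of these, 20 had a control anti-ETO peak (47.6% of all genes), 20 a control anti-Flag peak (50.2%), 22 a knockdown anti-ETO peak (53.8%) and 14 a knockdown anti-Flag peak (42.2%). NEIL2, APEX2, PARG and POLD3 had a peak in none of these lists, as had 41.6% of all genes. A control-unique peak lay at 8 genes (16.9% of all genes), among them TDG, a glycosylase for mismatched thymine; APTX, which cleans up broken DNA ends; PARP1 and PARP2, which sense strand breaks; POLL, a gap-filling polymerase; and NUDT1 and DUT, which clear damaged or wrong nucleotides before they enter DNA. At 7 of these 8 peaks the knockdown call was anti-ETO alone, as at UNG and LIG3. That was also the case at 74.7% of all 3059 control-unique peaks. Unlike those of UNG and LIG3, which lay over the start, the peaks of PARP1, POLL, TDG and PARP2 lay in the flanks, outside the gene.

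Of the same 26 genes, 5 had a knockdown-unique peak (18.4% of all genes), among them MBD4, a glycosylase of methylated CpG sites, PARP1, and POLD1 and POLD4, subunits of the replicative polymerase delta. POLD4 had 4 such peaks, PARP1 had 2, and MBD4 and POLD1 had 1 each. Of these 9 peaks, 8 had a control anti-Flag call alone (55.1% of all knockdown-unique peaks) and 1, at POLD1, had no control call (38.1%). POLD4 gave 4 of the 8, and of its peaks only chr11:67351174-67351597 lay inside the gene. POLD4, with 1, 6, 5 and 10 peaks in control anti-ETO, control anti-Flag, knockdown anti-ETO and knockdown anti-Flag, had counts close to those of MPG. In the same order of lists, 6, 5, 7 and 5 of 8 mismatch repair genes had a peak. For nucleotide excision repair the counts were 11, 10, 11 and 10 of 17 genes. Over all genes the shares were 47.6%, 50.2%, 53.8% and 42.2%.

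By the numbers of peaks in the 7 lists, the genes nearest to OGG1 outside its own window were VARS1, TK1 and WNT10B, each at a Euclidean distance of 1.41 peaks, with ties broken by gene length. VARS1, a transfer RNA synthetase gene on chromosome 6, had 3, 7, 7 and 11 peaks in the single-antibody lists (in the order control anti-ETO, control anti-Flag, knockdown anti-ETO, knockdown anti-Flag) and 2 knockdown-unique ones. TK1, the thymidine kinase gene on chromosome 17, had 4, 7, 6 and 10, and WNT10B, a signalling ligand gene on chromosome 12, had 3, 6, 6 and 10, each with 3 knockdown-unique peaks. All 3 had 3 shared and 0 control-unique peaks, as OGG1 did.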

How the data were processed

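The deposited files were 9 interval lists that give positions alone. Per the submitters' processing notes, fastp 0.19.5, Bowtie2 2.3.5, MACS2 2.2.5 and HOMER 4.8 were used, with the builds hg38 and sacCer3; thresholds, use of IgG and handling of the 3 libraries per group are not given in the sources used here. Depth is known only as a planned 40 M reads of 75 bp per library, per the labels' protocols. Starts are written counted from 1.

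Gene spans (RefSeq, GRCh38.p14) were extended by 10 kb, and any overlap of at least 1 bp counted. Exons, introns and UTRs were not used here. Regions are the union of the 4 single-antibody lists. Background shares use all 19974 protein-coding genes; starts came from RefSeq for 15812 of them, and 9 of the 10 members matched. Counting was done in Python 3.11.15 (numpy 2.4.6, pandas 2.3.3, matplotlib 3.10.9) and tested on simulated data, with 1000 of 1000 windows recovered.

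Members and lists were chosen with earlier results of these data known. Named genes were the 10 members, other pathway genes with a unique peak or with none, the 3 genes nearest OGG1 in peak numbers, and neighbours at member peaks; 1 pathway gene is counted and not reported here by name. Alternatives were other flanks, centre and 100 bp rules, the wider 50% of each list, shortened knockdown lists and assignment by nearest start.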

Additional observations from a re-analysis of the deposited data

How the results depend on the processing

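Of 78 alternatives over 19 results, 71 stayed within 1.5 times the reported count. Counts of 8 or 9 of the 10 members, and of 22 of the 26 other pathway genes, could not rise by that factor. For those counts a looser setting could not have shown a move. With a 50 kb flank, 5 members had a control-unique peak, 6 had a knockdown-unique peak, and 23 member regions were called in all 4 lists. In the wider 50% of the control-unique list 1 member kept a peak. The knockdown anti-ETO list shortened to the control length held 19 of its 31 member peaks, as it then holds fewer peaks. With the same list, members with fewer anti-ETO peaks in knockdown numbered 3 in place of 1, and 2 of the 7 member regions of knockdown anti-ETO alone kept their call. Assignment by the nearest annotated start, and shortened lists for numbers of peaks, for knockdown-unique peaks and for regions of a single list, were chosen after seeing the data. Of the 3 knockdown-unique peaks at OGG1, 2 lay in the gene body, and 2 had the OGG1 start as their nearest. No paired analysis was possible because the lists name no replicate. Unknown depth limits every absent call: a site without a peak may hold signal under the threshold.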
